A study of Bos taurus with 8 samples.

Results

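The calgranulins S100A8, S100A9 and S100A12 were followed in single blood mononuclear cells of cattle by time after lipopolysaccharide (LPS, the outer membrane component of Gram-negative bacteria). The genes were taken by name from the 4 scRNA-seq tables and are 3 of the 21861 genes listed, with the identifiers ENSBTAG00000012640 (S100A8), ENSBTAG00000006505 (S100A9) and ENSBTAG00000012638 (S100A12). In RefSeq's annotation of the assembly ARS-UCD2.0 they are neighbours on chromosome 3, in the order S100A8, S100A12, S100A9. Coordinates are not given here, because the counts were made on ARS-UCD1.2. Blood of 4 female, lactating Holstein animals aged 2 years was mixed, and the mixture was divided into a sample without LPS and samples kept with 2 µg/ml LPS at 37 °C for 2 h, 4 h or 8 h. Peripheral blood mononuclear cells (PBMCs) were isolated from each sample and gave 1 scRNA-seq and 1 scATAC-seq library, 8 libraries in all. An incubation time for the sample without LPS is not given in the sources used here, so the effects of LPS and of time outside the animal cannot be told apart. Because each treatment had 1 library per assay, made from a pool of animals, differences between treatments lack a replicate check and no test was made.

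Calgranulins are small calcium-binding proteins that neutrophils and monocytes hold in large amounts in the cytosol. S100A8 and S100A9 pair as calprotectin, which withholds zinc and manganese from bacteria and carries arachidonic acid, and S100A12 (calgranulin C) binds zinc and copper and is a ligand of the receptor AGER. Once released they act on TLR4 and other receptors of myeloid cells, and in dairy cattle they are known from inflamed milk and blood.

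Each scRNA-seq table held raw counts of unique molecular identifiers (UMIs, the tags that mark single captured transcripts), which summed to between 30902952 and 63770426 per library. The limits on cells were 200 to 3000 genes, a minimum of 200 UMIs and mitochondrial UMIs below 20%, and the cells kept were 7821, 9865, 7387 and 3411 for no LPS, 2 h, 4 h and 8 h. Any 2 libraries shared between 6 and 21 barcodes among these cells, and 0 among the myeloid cells. A cell was put in a class when its UMIs of the class markers were at least 2 and outnumbered those of each other class. CD14 (the LPS co-receptor) and CSF1R (the macrophage growth factor receptor) marked the first class, CSF3R (the granulocyte growth factor receptor) the second, the CD3 chains T cells, and CD79A, CD79B and MS4A1 B cells. No S100 gene was used for this. Levels are UMIs summed over the cells of a class scaled to 1000000 UMIs of that class (CPM), and a difference is the log2 ratio to the library without LPS with 1 CPM added to both. Intervals are exact 95% intervals and cover counting error only. The assay counts the 3′ ends of transcripts, so levels of different genes were set side by side without a length correction.

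The CD14/CSF1R-positive class held 886 cells without LPS, 379 after 2 h, 160 after 4 h and 96 after 8 h. All 10 monocyte markers, among them the 2 that define the class, had UMIs in each of the 4 libraries. Their summed level was 5478 CPM without LPS and between 3170.3 and 3842 CPM with LPS. T and B cells also had UMIs of 8 or 9 of these markers, at 7.93 to 62.9 CPM in the sum. Of 12 neutrophil markers, 8 to 10 had UMIs in CD14/CSF1R-positive cells. The summed level of these was 4109.6 CPM without LPS, 5186 CPM at 2 h, 7420.2 CPM at 4 h and 5633 CPM at 8 h. TGM3, a transglutaminase in that list, made up most of it, with 3728 CPM without LPS and 7022 CPM at 4 h. CSF3R stood at 8.02, 15.05, 57.1 and 20.0 CPM in these cells in the order of the libraries, with a UMI in 28.1% of them at 4 h against 5.42% without LPS. CXCR1 and CXCR2, the receptors for CXCL8, were also highest at 4 h, with 3.77, 11.9, 70.8 and 7.49 CPM and 0.354, 4.88, 11.4 and 4.99 CPM. In the cells with no CSF3R UMI the log2 ratio of the 3 calgranulins together to no LPS was -0.56, -0.22 and 0.33 at 2 h, 4 h and 8 h, and the part of the other neutrophil markers in the results below was not tested.

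The CSF3R-positive class was small, with 35, 82, 73 and 16 cells in the same order, and shallow, with a median of 1145 to 2089.5 UMIs per cell. Between 9 and 11 of the 12 neutrophil markers, CSF3R itself among them, had UMIs there, at 6129 to 13259 CPM in the sum. T and B cells had UMIs of 10 or 11 of them, at 107 to 394 CPM, so the count of markers does not set the class apart. Of the 10 monocyte markers, 3 to 5 had UMIs in CSF3R-positive cells. Their summed level was 1376, 973, 818 and 1986 CPM, highest in the 8 h library, where the calgranulin sum was also highest. FCN1 was highest at 8 h, with 576, 443, 231 and 1269 CPM in the order of the libraries, CD68 stood at 624, 297, 422 and 553 CPM and CD14 at 123 to 204 CPM, while CSF1R and CD163 were at 0 in each library. The part of these markers in the results was not tested. JCHAIN, the joining chain of antibodies that plasma cells make, stood at 4992 CPM in the CSF3R-positive cells without LPS and at 40.9 to 48.6 CPM with LPS. These cells are those that stayed with the mononuclear fraction, so they say nothing of the neutrophils that were separated from it.

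In CD14/CSF1R-positive cells all 3 calgranulins were among the most abundant transcripts in every library. They were lower at 2 h than without LPS and highest at 8 h, and none of the 9 log2 ratios to no LPS reached 2-fold. Together they made up 17390.4 CPM without LPS (17302 to 17479), 11738 CPM at 2 h (11640.1 to 11836), 14096 CPM at 4 h (13920.3 to 14273) and 22245 CPM at 8 h (21919 to 22574). The log2 ratio of this sum to no LPS was -0.57 after 2 h, -0.30 after 4 h and 0.36 after 8 h.

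S100A8, whose protein is lost where S100A9 is lacking, stood at 4169.7 CPM without LPS (4126 to 4213), 3469.9 CPM at 2 h (3417 to 3524), 3767 CPM at 4 h (3677 to 3859) and 5908 CPM at 8 h (5741 to 6079). The intervals of the 4 libraries did not overlap, and the level at 8 h was the highest. Its log2 ratio to no LPS was -0.26 after 2 h (-0.29 to -0.24), -0.15 after 4 h (-0.18 to -0.11) and 0.50 after 8 h (0.46 to 0.55).

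S100A9, the partner that carries the arachidonic acid site of calprotectin, stood at 4312 CPM without LPS (4268 to 4356), 3322 CPM at 2 h (3271 to 3375), 4461 CPM at 4 h (4362 to 4561) and 5834 CPM at 8 h (5668 to 6004). By the sum it was near the level without LPS at 4 h, with a log2 ratio of 0.05 (0.01 to 0.08), but with cells weighted equally the ratio was -0.30, and 74.4% of cells had a UMI of it against 87.7% without LPS. The ratio of the sum was -0.38 at 2 h (-0.40 to -0.35) and 0.44 at 8 h (0.39 to 0.48).

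S100A12 was the most abundant calgranulin of these cells in each library. It stood at 8909 CPM without LPS (8846 to 8973), 4945 CPM at 2 h (4882 to 5009), 5868 CPM at 4 h (5755 to 5982) and 10503 CPM at 8 h (10279 to 10729). Its fall at 2 h was the widest of the 3 genes, with a log2 ratio of -0.85 (-0.87 to -0.83), and it was still lower at 4 h, at -0.60 (-0.63 to -0.57). At 8 h its log2 ratio was 0.24 (0.20 to 0.27). In order of abundance among the genes of the class, S100A12 was number 9 without LPS, 24 after 2 h, 21 after 4 h and 8 after 8 h, while S100A8 and S100A9 lay between 19 and 37.

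**Figure D1:**
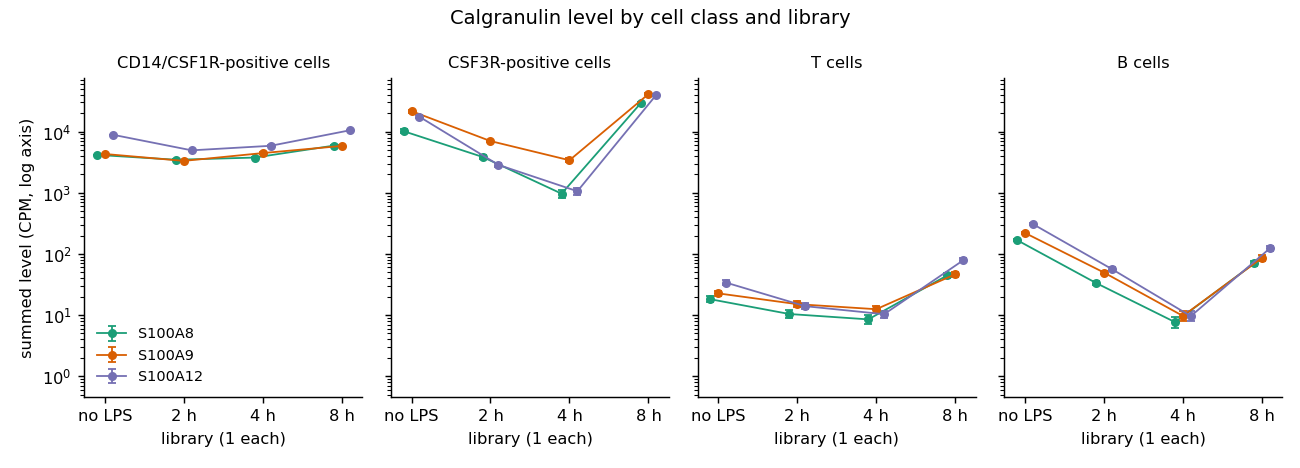
Level (CPM, log axis) of S100A8, S100A9 and S100A12 in each cell class by library, with 95% counting intervals as bars. In CD14/CSF1R-positive cells the 12 levels lie between 3322 and 10503 CPM, while in T cells none exceeds 78.5 CPM.

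The share of all tested genes past 2-fold in the same cells gives the background for these ratios. At 2 h, 3.71% of 8465 genes were past 2-fold higher and 16.1% past 2-fold lower, and 0 of the 3 calgranulins were in either group. At 4 h the shares were 5.69% and 8.87% of 8263 genes, and at 8 h 5.13% and 6.13% of 8114 genes, again with 0 of the 3 calgranulins. The median log2 ratio of all tested genes was -0.47 after 2 h, -0.10 after 4 h and 0.03 after 8 h. Relative to it, S100A8 and S100A9 were not lower at 2 h, and their log2 ratios became positive when libraries were scaled by TMM (0.20 and 0.09) or by DESeq2 size factors (0.24 and 0.13). S100A12 was lower at 2 h under each scaling, and 23.6% of all tested genes had a lower ratio than S100A12, against 65.7% for S100A8 and 57.7% for S100A9.

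Single cells of the class differed widely in their calgranulin level. Among cells with at least 1000 UMIs, the 3 genes together had a median of 11467 CPM per cell without LPS, with quartiles of 5849 and 22673 CPM. At 2 h the median was 7466 CPM (2510.0 to 14138), at 4 h 7513 CPM (745 to 17649) and at 8 h 5525 CPM (2807 to 23332). The lower quartile after 4 h was the lowest of the 4, and the share of cells of the class with no calgranulin UMI was 1.69% without LPS, 6.86% after 2 h, 13.8% after 4 h and 6.25% after 8 h. When each cell was thinned to 1000 UMIs, 94.5% of cells without LPS had a calgranulin UMI, 87.0% after 2 h, 77.9% after 4 h and 88.2% after 8 h.

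The summed level and the middle cell thus pointed in different directions at 8 h. The cell with the most calgranulin UMIs held 1.69% of those of the class without LPS, 1.85% after 2 h, 3.83% after 4 h and 6.64% after 8 h. Without it the log2 ratio of the sum at 8 h was 0.31, and with every cell weighted equally it was -0.29. Leiden clusters made without any S100 gene gave a second view of the class, as cluster 14, which held 965, 382, 147 and 70 cells in the order of the libraries. The median cell of this cluster had 11289 CPM without LPS, 7981 CPM at 2 h, 8429 CPM at 4 h and 12163 CPM at 8 h, and the sums were 17313, 11378, 13791 and 22021 CPM. Of all cells of this cluster, 95.8%, 94.2%, 89.1% and 92.9% had a calgranulin UMI, with lower quartiles of 5405, 3480, 1319 and 1262 CPM. Of the 96 marker-positive cells at 8 h, 53 were in cluster 14 and 35 in cluster 2, a cluster with a median of 1390.5 UMIs per cell that held 25.8% of all cells at 8 h and between 0.0948% and 1.14% in the other libraries. Cluster 15, which most CSF3R-positive cells fell into, also held marker-positive cells of the CD14/CSF1R-positive class. In the order of the libraries they were 6 of 886, 48 of 379, 28 of 160 and 7 of 96. Their part in the share of cells with no calgranulin UMI was not tested.

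The upper limit of 3000 genes also touched this class. Of the CD14/CSF1R-positive cells found without that limit, it removed 364 of 1250 without LPS, 168 of 547 at 2 h, 156 of 316 at 4 h and 148 of 244 at 8 h. In the removed cells the 3 calgranulins summed to 9905.5, 7044, 9741 and 16753 CPM, lowest at 2 h and highest at 8 h, as in the cells kept. Without the limit the median over all cells of the class was 10297, 6836, 7613 and 11338 CPM, and with it 11543, 7424, 7236 and 5297 CPM, so the lower median at 8 h was seen with the limit and not without it. The log2 ratio of the sum without the limit was -0.51 after 2 h, -0.27 after 4 h and 0.42 after 8 h.

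**Figure D2:**
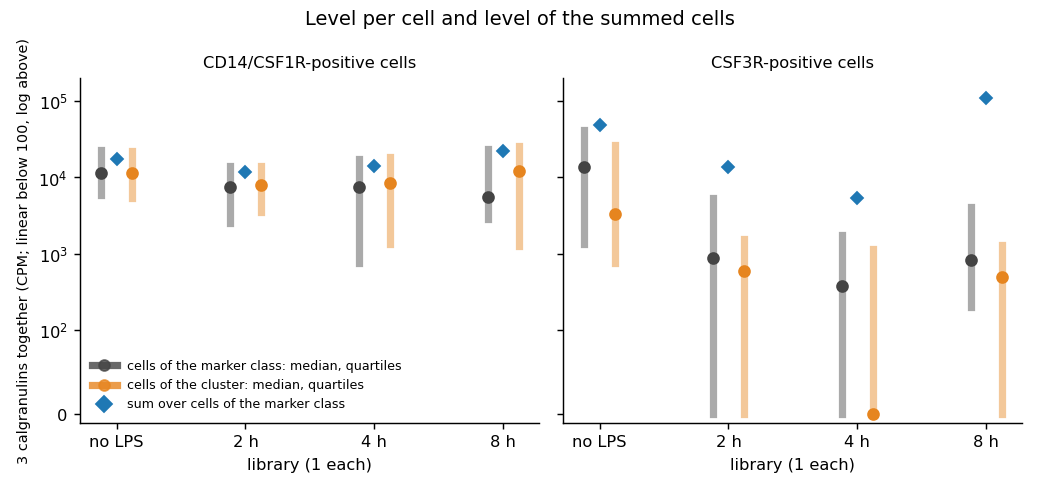
Level of the 3 calgranulins together (CPM, linear below 100 and log above) in CD14/CSF1R-positive cells (left) and CSF3R-positive cells (right): circles and bars are the median and quartiles over cells for the marker class (grey) and its cluster (orange), and diamonds are the sum over the cells of the marker class. Grey marks on the left are of cells with at least 1000 UMIs, and the other marks are of all cells. At 8 h the median of CD14/CSF1R-positive cells was 5525 CPM by the marker class (85 cells) and 12163 CPM by the cluster (70 cells). Over all 96 cells of the marker class it was 5297 CPM. In CSF3R-positive cells every sum lay above the median.

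In CSF3R-positive cells the calgranulins were past 2-fold lower than without LPS at 2 h and 4 h, and at 8 h their sum rested on a few cells. The 3 genes together made up 49356 CPM without LPS (47629.6 to 51129), 13728 CPM at 2 h (13226 to 14244), 5431 CPM at 4 h (5109 to 5769) and 110301 CPM at 8 h (107376 to 113287). The log2 ratios to no LPS were -1.85 (-1.92 to -1.77), -3.18 (-3.29 to -3.08) and 1.16 (1.096 to 1.22).

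S100A8 stood at 10175 CPM without LPS, 3858 CPM at 2 h, 967 CPM at 4 h and 28967 CPM at 8 h, which gave log2 ratios of -1.40, -3.39 and 1.51. By the sum S100A9 was the most abundant of the 3 in each library of this class. It stood at 21662 CPM without LPS, 7009.7 CPM at 2 h, 3405 CPM at 4 h and 41169 CPM at 8 h, where its interval overlapped that of S100A12. Its log2 ratios were -1.63, -2.67 and 0.93. In the median cell without LPS S100A12 was higher than S100A9 (6341 against 4713 CPM). In cluster 15, described below, the sum of S100A12 was higher without LPS (26449 against 25680 CPM) and at 8 h (11212 against 11035 CPM). The intervals overlapped in both, and S100A9 was higher there at 2 h and 4 h. S100A12 went from 17519 CPM without LPS to 2860.3 CPM at 2 h, 1059.5 CPM at 4 h and 40165 CPM at 8 h, with log2 ratios of -2.61, -4.05 and 1.197. All 3 genes were past 2-fold lower at 2 h and at 4 h, where 31.1% of 1118 and 23.1% of 1162 tested genes were, and 13.4% and 17% were past 2-fold higher. At 8 h S100A8 and S100A12 were past 2-fold higher, as were 11.1% of 650 tested genes, while 33.2% were past 2-fold lower.

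One cell held 51.2% of the calgranulin UMIs of the class without LPS, 31.6% after 2 h, 17.6% after 4 h and 68.1% after 8 h, and the top 5 cells after 8 h held 99.6%. Without the top cell of each library the sums were 26196, 9810.2, 4531 and 46601 CPM, with the libraries in the same order. The median cell stood at 13525 CPM without LPS, 875 CPM at 2 h, 372 CPM at 4 h and 819 CPM at 8 h, so by the median the level at 8 h was close to that at 2 h and far below that without LPS. Cells with no calgranulin UMI were 7 of 35 without LPS, 26 of 82 at 2 h, 28 of 73 at 4 h and 4 of 16 at 8 h. The cluster that most of these cells fell into, cluster 15, held 132, 393, 225 and 84 cells with sums of 65984, 7297, 3090.3 and 30340 CPM. There the log2 ratio to no LPS was -3.18 at 2 h and -4.42 at 4 h, and at 8 h it was -1.12, the opposite direction to the marker class. The lower levels at 2 h and 4 h were thus seen in both views and in the median cell, and a higher level at 8 h was not.

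**Figure D3:**
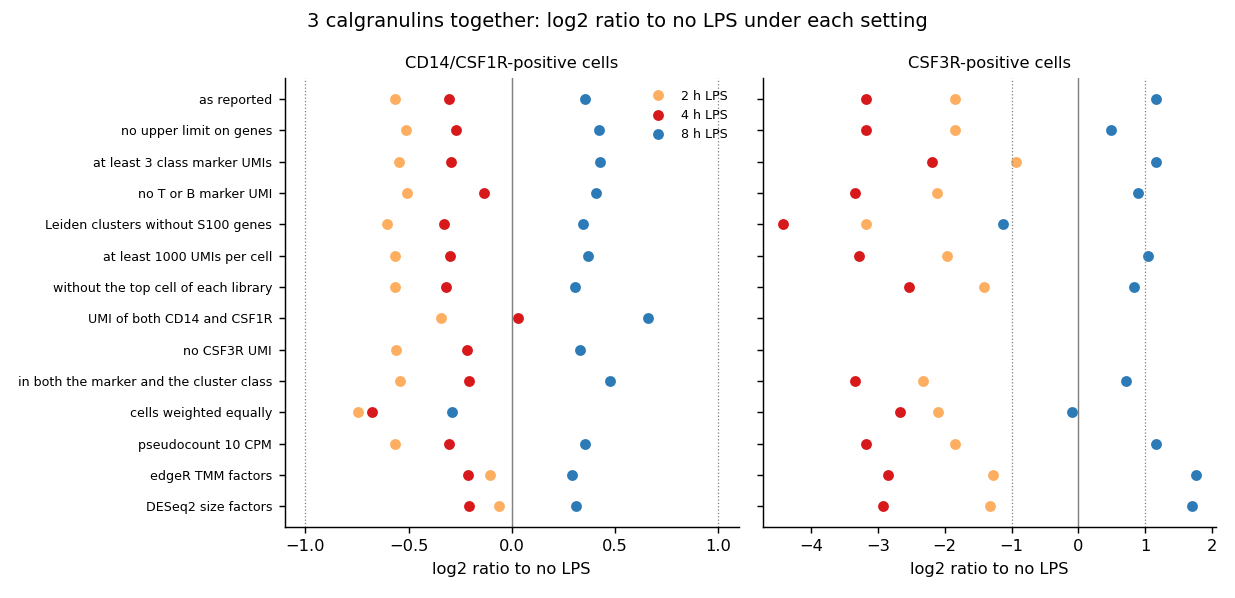
Log2 ratio of the summed calgranulins to no LPS (x axis) under each processing setting (y axis) in CD14/CSF1R-positive cells (left) and CSF3R-positive cells (right), by time, with dotted lines at 2-fold; the 2 settings on CSF1R and CSF3R UMIs apply to the left side only. Ratios at 2 h lie below 0 under each setting in both classes, while at 8 h they are negative with cells weighted equally in both classes (-0.29 and -0.09) and with clusters in CSF3R-positive cells (-1.12).

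The 3 calgranulins did not keep the same proportions in the 2 myeloid classes. In CD14/CSF1R-positive cells there were 2.07 S100A12 UMIs per S100A9 UMI without LPS (2.04 to 2.09), 1.49 after 2 h (1.46 to 1.52), 1.32 after 4 h (1.28 to 1.35) and 1.80 after 8 h (1.74 to 1.87). In CSF3R-positive cells this ratio was 0.809 without LPS (0.746 to 0.876), 0.408 after 2 h (0.370 to 0.449), 0.311 after 4 h (0.265 to 0.364) and 0.976 after 8 h (0.916 to 1.04). In each library the ratio was lower in CSF3R-positive cells, with counting intervals that did not overlap, and in both classes it was lowest at 4 h. The intervals take UMIs as independent and leave out differences between cells. In CSF3R-positive cells 1 cell held 51.2%, 31.6%, 17.6% and 68.1% of the calgranulin UMIs in the order of the libraries. In cluster 15 the proportions at 2 h and 4 h were close, with 852 S100A12 against 2278 S100A9 UMIs and 272 against 727. S100A8 and S100A9 were near parity in CD14/CSF1R-positive cells, with 0.845 to 1.04 S100A8 UMIs per S100A9 UMI, and S100A8 was the scarcer in CSF3R-positive cells, with 0.284 to 0.704.

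**Figure D4:**
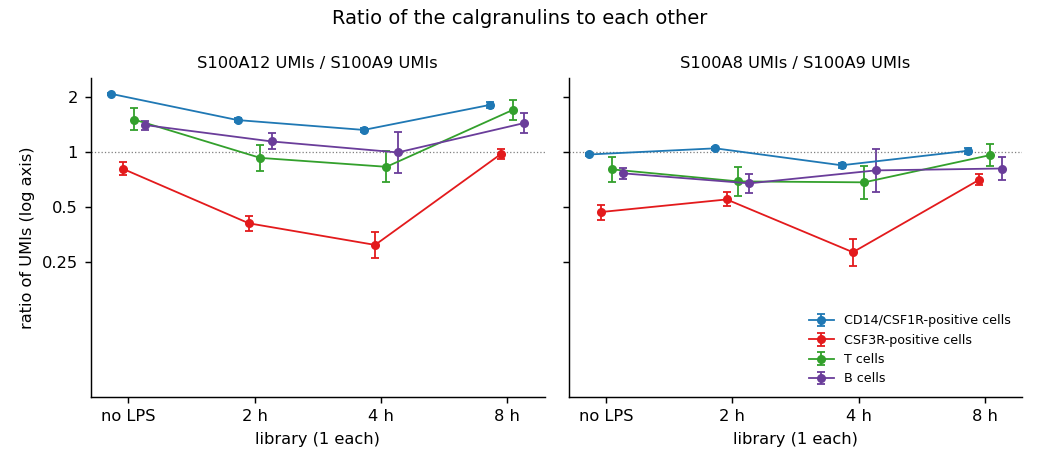
UMIs of S100A12 (left) and S100A8 (right) per UMI of S100A9 (log axis) by library in the 4 cell classes, with 95% counting intervals; the dotted line marks equal counts. CD14/CSF1R-positive cells have the highest ratio of S100A12 to S100A9 in each library (1.32 to 2.07) and CSF3R-positive cells the lowest (0.311 to 0.976).

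T and B cells, which should lack calgranulins, gave the background level. In T cells (3351, 4468, 3628 and 1534 cells) the 3 genes summed to 74.7 CPM without LPS (70.5 to 79.1), 39.5 CPM at 2 h (36.8 to 42.3), 31.3 CPM at 4 h (28.8 to 33.9) and 169.5 CPM at 8 h (160.9 to 178). In B cells (1973, 2666, 2054 and 721 cells) they summed to 697 CPM (680.3 to 714), 139.7 CPM (133.7 to 146), 26.9 CPM (24.2 to 29.9) and 279 CPM (264 to 295). The level in CD14/CSF1R-positive cells was 131 to 450.4 times that in T cells and 24.96 to 523 times that in B cells, so the background was 0.222% to 0.762% and 0.191% to 4.01% of it.

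Of the cells thinned to 1000 UMIs, 6.25% of T cells had a calgranulin UMI without LPS, 2.55% after 2 h, 1.95% after 4 h and 13.1% after 8 h. In B cells the shares were 7.41%, 3.13%, 2.25% and 19.2%. Unthinned shares were 21.9%, 8.71%, 9.62% and 38.5% in T cells and 23.7%, 10.6%, 10.2% and 45.6% in B cells, at median depths between 3953 and 5740.0 UMIs per cell. Both lymphocyte classes thus had the highest share at 8 h and the lowest at 4 h after thinning, and every thinned share in CD14/CSF1R-positive cells lay above them. In CSF3R-positive cells the thinned shares were 80%, 61.8%, 46.2% and 60%, also above the lymphocytes of the same library.

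The level of B cells without LPS rested on 15 cells with at least 10 calgranulin UMIs, which held 91.5% of the UMIs. Among cells with under 10 such UMIs, B cells stood at 60.1, 22.6, 19.4 and 159 CPM and T cells at 54.5, 21.9, 20.5 and 132 CPM, so the 2 lymphocyte classes were close in each library and highest at 8 h. Against no LPS, S100A8, S100A9 and S100A12 were past 2-fold higher in T cells at 8 h (log2 1.25, 1.01 and 1.19), where 0.753% of 10356 tested genes were and 0.396% were past 2-fold lower. At 2 h, S100A12 was past 2-fold lower in T cells (-1.22, background 0.224% lower and 0.663% higher), and at 4 h S100A8 and S100A12 were (-1.01 and -1.62, background 0.648% lower and 0.985% higher). In B cells all 3 genes were past 2-fold lower at each time, where 1.22%, 3.57% and 1.94% of tested genes were lower and 2.6%, 2.37% and 1.52% higher. The ratio of S100A12 to S100A9 in T cells was 1.499, 0.927, 0.828 and 1.69 and in B cells 1.40, 1.14, 0.992 and 1.43, lowest at 4 h in both and between the ratios of the 2 myeloid classes in each library. Whether these UMIs were free RNA in the droplets was not tested.

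Over all cells kept, the calgranulins were lower than without LPS at each time. S100A8 stood at 1013 CPM without LPS and at 394, 178 and 465 CPM at 2 h, 4 h and 8 h, and S100A9 at 1099 CPM and at 409.9, 224 and 511 CPM. S100A12 stood at 2151 CPM without LPS and at 538, 273 and 795 CPM. The log2 ratios of the sum were -1.67, -2.66 and -1.27, and all 3 genes were past 2-fold lower at each time, where 2.46%, 4.26% and 2.92% of tested genes were (0.938%, 1.28% and 0.492% were past 2-fold higher). CD14/CSF1R-positive cells, which held 89.8% of the calgranulin UMIs without LPS, 86.2% after 2 h, 91.1% after 4 h and 60.4% after 8 h, were 11.3%, 3.84%, 2.17% and 2.81% of the cells. With the class shares of UMIs held as without LPS, the log2 ratios were -0.65, -0.44 and 0.34. Such sums alone do not part fewer cells of a class from less RNA per cell. Among the cells kept, CD14/CSF1R-positive cells had a median of 10016, 13632, 11751.5 and 5126 UMIs in the order of the libraries. Among these cells kept, the median was thus lower than without LPS at 8 h only, while their share of cells was lower at each time. The limit of 3000 genes removed 364 of 1250 cells of the class without LPS and 148 of 244 at 8 h. The removed cells had medians of 25810 and 35641.5 UMIs. Without that limit the class held 21131472 UMIs in 1250 cells without LPS and 7706521 UMIs in 244 cells at 8 h. UMIs per cell were then higher at 8 h than without LPS. The part of fewer cells and of RNA per cell in the sums was not tested. Without the upper limit on genes the log2 ratios were -1.51, -1.67 and -0.04.

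**Figure D5:**
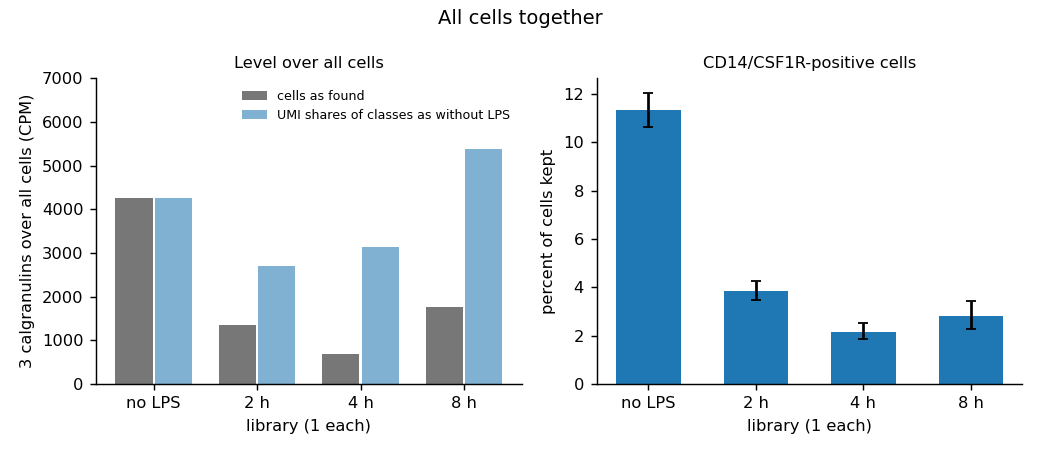
Left, level of the 3 calgranulins over all cells (CPM) by library as found (grey) and with the class shares of UMIs as without LPS (blue); right, CD14/CSF1R-positive cells in percent of the cells kept, with 95% Clopper-Pearson intervals. The level as found falls from 4262 CPM to 674 CPM at 4 h, where the class is 2.17% of cells, and with fixed shares it lies between 2712 and 5393 CPM.

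The calgranulins also went together from cell to cell within a library. In CD14/CSF1R-positive cells thinned to 1000 UMIs, Spearman's rho between pairs of the 3 genes lay between 0.569 (S100A9 with S100A12 at 2 h, 370 cells) and 0.780 (the same pair at 8 h, 85 cells). Cells of a library share its preparation, and these values are a description. Over the 16 sums of 4 classes and 4 libraries, the genes most like each calgranulin by Pearson's correlation of log2(CPM + 1) were the other 2 calgranulins, with r of 0.996 for S100A8 with S100A12, 0.994 for S100A8 with S100A9 and 0.984 for S100A9 with S100A12, among 9700 genes. After them came FCN1, a ficolin of monocytes that was like all 3 (0.975 to 0.983), and SLC66A2, which was like S100A8 and S100A9 (0.973 and 0.982). TYROBP, a signalling adaptor of myeloid receptors, was like S100A8 (0.972), DUSP1, a phosphatase of MAP kinases, was like S100A9 (0.976), and CLEC5A, a myeloid lectin receptor, was like S100A12 (0.968). The 16 points share libraries and depth, and most of the range lies between myeloid cells and lymphocytes.

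Of 8 receptors reported for calgranulins and tested in CD14/CSF1R-positive cells, 0 were past 2-fold higher at any time, and 2, 3 and 1 were past 2-fold lower at 2 h, 4 h and 8 h, against 16.1%, 8.87% and 6.13% of all tested genes, with list medians of -0.69, -0.49 and -0.18 beside the medians of all genes given above. CD14 stood at 2224, 1375, 1785 and 1837 CPM, and CD36, a scavenger receptor, at 499, 220.2, 111 and 292 CPM, with its widest fall at 4 h (log2 -2.15). Among the genes with at least 200 UMIs, TLR4, the signalling receptor for LPS and calprotectin, had the largest rise, at 4 h, with a log2 ratio of 0.64 from 84.6 to 133 CPM. AGER, the receptor of S100A12, was scarce, with 2.83, 1.48, 5.71 and 4.99 CPM from 24, 7, 10 and 4 UMIs. ITGAM, a chain of the integrin CD11b/CD18, was past 2-fold lower at each time (-1.23, -1.52 and -1.19).

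Other S100 genes were mostly low or scarce. Of 15 listed, 8 could be tested in CD14/CSF1R-positive cells, where 0, 1 and 0 were past 2-fold higher (3.71%, 5.69% and 5.13% of all tested genes) and 2, 3 and 1 past 2-fold lower (16.1%, 8.87% and 6.13%) at 2 h, 4 h and 8 h, with list medians of -0.57, -0.68 and -0.35. S100A11 was the most abundant, at 7664, 4846, 4205 and 4786 CPM, and S100A4, linked to cell movement, followed at 3647.5, 2609, 2573 and 2182 CPM. Among the genes with at least 200 UMIs, S100A10, the partner of annexin A2, had the widest fall, with log2 ratios of -1.04, -1.42 and -1.01, and S100A2 the largest rise, 0.83 at 4 h. These 4 genes were not higher at 8 h than without LPS, except S100A2 (0.44). S100A13, which was scarce with 45, 44, 23 and 8 UMIs, had log2 ratios of 1.16 at 4 h and 0.80 at 8 h. By the sums the ratios of S100A8, S100A9 and S100A12 at 8 h were 0.50, 0.44 and 0.24. A higher level at 8 h was thus also seen in S100A2, from 52 UMIs at 8 h, and in S100A13, from 8 UMIs. The more abundant S100A11, S100A4 and S100A10 were lower at 8 h (-0.68, -0.74 and -1.01).

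The NADPH oxidase, to which calprotectin delivers arachidonic acid, had 7 of 7 subunit and regulator genes tested, with 0 past 2-fold higher and 2, 1 and 1 past 2-fold lower at 2 h, 4 h and 8 h, where 16.1%, 8.87% and 6.13% of all tested genes were lower (list medians 0.04, -0.58 and -0.45). CYBA stood at 1394, 1006, 935 and 1451 CPM and RAC1, its small GTPase, at 1289, 1325, 1478 and 1139 CPM. CYBB, the catalytic subunit, had the widest fall, -1.71 at 4 h, and NCF1, a cytosolic subunit, the largest rise, 0.54 at 2 h.

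Of 16 neutrophil granule and antimicrobial genes, 15 were listed and 3 could be tested in CD14/CSF1R-positive cells, with 0 past 2-fold higher and 1 past 2-fold lower at each time, where 16.1%, 8.87% and 6.13% of all tested genes were lower (list medians -0.38, -0.79 and -0.91). That gene was MMP9, a gelatinase, at 72.5, 2.76, 6.28 and 9.99 CPM, while lysozyme (LYZ) stood at 365, 279.4, 211 and 194 CPM and CHI3L1 at 136, 197.8, 117 and 92.4 CPM. In CSF3R-positive cells LCN2, the lipocalin of neutrophil granules, had 1, 27, 1 and 237 UMIs in the order of the libraries, 4852 CPM at 8 h. There 1 cell held 68.1% of the calgranulin UMIs at 8 h and 51.2% without LPS, where LCN2 had 1 UMI. Whether LCN2 and the calgranulins lay in the same cells was not tested.

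Of 8 annexins, partners of S100 proteins at membranes, 0 were past 2-fold higher at any time and 0, 3 and 0 past 2-fold lower at 2 h, 4 h and 8 h, against 16.1%, 8.87% and 6.13% of all tested genes (list medians -0.28, -0.64 and -0.24). ANXA2 stood at 1893, 1678, 1403 and 1522 CPM and ANXA5 at 1531, 834, 676 and 1089 CPM, while ANXA11 had the widest fall (-1.44 at 4 h) and ANXA1 the largest rise (0.74 at 4 h). Of 8 myeloid regulators, 0, 1 and 0 were past 2-fold higher and 1 past 2-fold lower at each time, counts near the shares of all tested genes (3.71%, 5.69% and 5.13% higher, 16.1%, 8.87% and 6.13% lower; list medians 0.22, 0.32 and 0.31). CEBPD, a factor of inflammatory gene programmes, stood at 2148, 2897, 2036 and 1902 CPM and HIF1A at 736, 803, 937 and 1090.0 CPM, while IRF7 of the interferon response was past 2-fold higher at 4 h (2.59) and CEBPE, a granulocyte factor, past 2-fold lower at 2 h, 4 h and 8 h (-1.93, -1.93 and -1.16).

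Of 10 genes known to respond to LPS, 8, 5 and 2 were past 2-fold higher in CD14/CSF1R-positive cells at 2 h, 4 h and 8 h, against 3.71%, 5.69% and 5.13% of all tested genes, and 0 were past 2-fold lower, with list medians of 1.34, 1.00 and 0.74. The cytokine IL1B stood at 8927, 21303, 15614 and 15865 CPM and the neutrophil attractant CXCL8 at 8796, 23722, 24769.6 and 15183 CPM. PTGS2, the inducible prostaglandin synthase, had log2 ratios of 3.64, 2.27 and 1.54, and IL6 the widest fall, -0.33 at 8 h. By the sum S100A12 was at its lowest of the 4 libraries at 2 h, where most of these genes were past 2-fold higher. In the median cell with at least 1000 UMIs S100A12 was lowest at 8 h (2549 CPM, against 2828 CPM at 2 h). In the median cell of cluster 14 it was lowest at 2 h (3190 CPM, against 3598 CPM at 8 h). A link between S100A12 and these genes was not tested.

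Chromatin at the calgranulin genes was measured sparsely. The scATAC-seq tables held counts per gene and barcode that summed to 975012 without LPS, 30250143 after 2 h, 26837579 after 4 h and 11957904 after 8 h, and S100A8 was listed in none of them. S100A9 had 150 counts in 62 of 4172 barcodes at 2 h and 151 counts in 71 of 3231 barcodes at 4 h, which was 4.96 and 5.63 CPM and number 12135 of 13821 and 11780 of 13255 genes in order of counts. S100A12 had 1 count, in 1 barcode at 2 h. No calgranulin was listed without LPS or at 8 h, and because the rule by which fragments were given to genes is not given in the sources used here, a gene that is not listed cannot be read as closed.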

How the data were processed

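Per the labels, PBMCs were isolated from blood treated with or without LPS, and 10x Genomics 3′ scRNA-seq and scATAC-seq libraries were made. The submitters' processing notes name Cell Ranger and the build ARS-UCD1.2 (bosTau9). For scRNA-seq the deposited values are UMI counts of each gene in each barcode, without normalization, and for scATAC-seq they are counts of each gene in each barcode, whose counting rule is not given in the sources used here. The deposited tables held 30756 scRNA-seq barcodes, from 3860 to 10429 per library.

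Limits on cells modelled on the study's were applied to those tables (200 to 3000 genes, a minimum of 200 UMIs, under 20% mitochondrial UMIs). The study words its UMI limit as an upper one, which was read here as a minimum, and its removal of genes seen in very few cells was not repeated. They left 28484 cells, more than the total the study states. No doublet caller was run. Classes without any T or B marker UMI were an alternative. The UMIs of a class were added up within each library and scaled to CPM (1000000 UMIs per class), with a pseudocount of 1 CPM in log2 ratios. Levels and ratios carry exact Poisson and conditional binomial intervals, and shares Clopper-Pearson intervals, at 95%. For shares across depths each cell was thinned to 1000 UMIs and shallower cells were left out: 43, 9, 11 and 11 CD14/CSF1R-positive cells, 10, 6, 8 and 1 CSF3R-positive cells, 53, 71, 45 and 19 T cells and 30, 11, 8 and 14 B cells, in the order no LPS, 2 h, 4 h and 8 h. A gene counted as tested when the 2 libraries of a comparison held at least 20 UMIs of it and as called past 2-fold.

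The calgranulins and all gene lists were chosen with earlier results of these data known. The genes named are the 3 calgranulins, the class markers and the marker lists used to check the classes, up to 4 genes per list (the 2 highest without LPS, the largest rise and the widest fall among genes with at least 200 UMIs) and the 5 genes most like each calgranulin. ITGAM, LCN2 and S100A13 were added after their values were seen. S100A6, S100A15, S100P, CD33, CATHL3 and CEBPA, which the lists also hold, were not analysed here, and some genes that the rule names are not reported here. Leiden clusters were made without S100 genes in scanpy 1.11.5. Python 3.11.15, numpy 2.4.6, scipy 1.17.1, R 4.3.3, edgeR 4.0.16 and DESeq2 1.42.0 were used, the last 2 for scaling factors only. The ratio step was tested on simulated Poisson counts with known fold changes. The simulation held no differences between cells, so it says nothing of sums that rest on a few cells. With 1 library per treatment no test was made. Alternative cell limits, class definitions, scalings, pseudocounts and gene filters were tried.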

Additional observations from a re-analysis of the deposited data

Results flagged for a closer look

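T cells and B cells differed in sign at 8 h for all 3 calgranulins. The log2 ratio to no LPS of S100A8 was 1.25 in T cells and -1.26 in B cells, that of S100A9 1.01 and -1.35, and that of S100A12 1.19 and -1.32. The 15 B cells with at least 10 calgranulin UMIs held 91.5% of such UMIs in B cells without LPS, and among cells with under 10 both classes were higher at 8 h than without LPS, at 132 against 54.5 CPM in T cells and 159 against 60.1 CPM in B cells. S100A9 at 4 h had a log2 ratio of 0.049 in CD14/CSF1R-positive cells and -2.67 in CSF3R-positive cells. In each case the single library of 1 class lay above no LPS and that of the other below it, and the difference between the classes was not tested.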

How the results depend on the processing

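Of the log2 ratios recomputed under an alternative, 93 moved by less than their counting interval, 177 moved by more and 24 changed sign. No paired analysis was possible because each treatment had 1 library. The alternatives without the top cell of each library, with a UMI of both CD14 and CSF1R, with no CSF3R UMI, with lymphocytes under 10 calgranulin UMIs and with cells placed alike by markers and clusters were chosen after seeing the data. The lower level at 2 h in both myeloid classes and at 4 h in CSF3R-positive cells held under each alternative for the 3 genes summed, while the direction at 8 h did not. The cause of these shifts was not tested. The summed level in CD14/CSF1R-positive cells (CPM, in the order no LPS, 2 h, 4 h and 8 h unless times are given) was 12909, 9035, 10712 and 17324 without the upper limit on genes, 17527, 12014, 14313 and 23609 with at least 3 marker UMIs, 17988, 12649.7, 16371 and 23903 with no T or B marker UMI and 11378 and 13791 with Leiden clusters (2 h and 4 h). It was 17142, 11591, 13765 and 21209 without the top cell of each library, 16456, 12974, 16784 and 26012 with a UMI of both CD14 and CSF1R, 16819, 11417, 14469 and 21161 with no CSF3R UMI and 17589.9, 12064, 15218 and 24461 with only cells placed alike by markers and clusters. Its log2 ratio to no LPS (2 h, 4 h and 8 h) was -0.51, -0.27 and 0.42 without the upper limit on genes, -0.54 and 0.43 with at least 3 marker UMIs (2 h and 8 h), -0.51, -0.14 and 0.41 with no T or B marker UMI and -0.61 and -0.33 with Leiden clusters (2 h and 4 h). The ratio was 0.31 without the top cell of each library (8 h), -0.34, 0.029 and 0.66 with a UMI of both CD14 and CSF1R, -0.22 and 0.33 with no CSF3R UMI (4 h and 8 h) and -0.54, -0.21 and 0.48 with only cells placed alike by markers and clusters. The ratio was -0.75, -0.68 and -0.29 with cells weighted equally, -0.11, -0.21 and 0.29 with TMM factors and -0.063, -0.21 and 0.31 with DESeq2 size factors. The summed level in CSF3R-positive cells (CPM, in the order no LPS, 2 h, 4 h and 8 h unless times are given) was 69182 without the upper limit on genes (8 h), 28636, 15058, 6292 and 63866 with at least 3 marker UMIs, 59258 and 5824 with no T or B marker UMI (no LPS and 4 h) and 65984, 7297, 3090.3 and 30340 with Leiden clusters. It was 54238 with at least 1000 UMIs per cell (no LPS), 26196, 9810.2, 4531 and 46600.5 without the top cell of each library and 67326 and 6616 with only cells placed alike by markers and clusters (no LPS and 4 h). Its log2 ratio to no LPS (2 h, 4 h and 8 h) was 0.49 without the upper limit on genes (8 h), -0.93 and -2.19 with at least 3 marker UMIs (2 h and 4 h), -2.12, -3.35 and 0.90 with no T or B marker UMI and -3.18, -4.42 and -1.12 with Leiden clusters. The ratio was -1.97 and 1.04 with at least 1000 UMIs per cell (2 h and 8 h), -1.42, -2.53 and 0.83 without the top cell of each library, -2.32, -3.35 and 0.71 with only cells placed alike by markers and clusters and -2.10, -2.66 and -0.090 with cells weighted equally. The ratio was -1.28, -2.85 and 1.75 with TMM factors and -1.32, -2.92 and 1.70 with DESeq2 size factors. In CD14/CSF1R-positive cells single genes changed sign as follows. At 2 h S100A8 went to 0.20 with TMM factors and 0.24 with DESeq2 size factors, and S100A9 to 0.085 and 0.13. At 4 h S100A8 went to 0.041 with no T or B marker UMI and 0.12 with a UMI of both CD14 and CSF1R, and S100A9 to -0.30 with cells weighted equally. At 8 h S100A8, S100A9 and S100A12 went to -0.14, -0.15 and -0.44 with cells weighted equally. In CSF3R-positive cells at 8 h S100A8 went to -0.78, S100A9 to -1.22 and S100A12 to -1.24 with Leiden clusters, and S100A9 and S100A12 to -0.33 and -0.17 with cells weighted equally. Over all cells the ratio of the sum at 2 h, 4 h and 8 h was -1.51, -1.67 and -0.044 without the upper limit on genes and -0.65, -0.44 and 0.34 with class shares of UMIs as without LPS. With those shares S100A8, S100A9 and S100A12 went to 0.50, 0.39 and 0.23 at 8 h, and without the gene limit S100A8 went to 0.026. The thinned share of CD14/CSF1R-positive cells with a calgranulin UMI was 94.5%, 87.0% and 77.9% (no LPS, 2 h and 4 h) and that of CSF3R-positive cells 46.2% (4 h). The number of all genes past 2-fold depended on the filter. With at least 200 UMIs it was 177 higher and 528 lower after 2 h, 189 and 272 after 4 h, and 72 and 105 after 8 h in CD14/CSF1R-positive cells, and 42 and 59, 42 and 42, and 12 and 17 in CSF3R-positive cells. With at least 1 UMI it was 1054 and 833 at 8 h in CD14/CSF1R-positive cells, and 2819 and 2541, 3257 and 2267, and 1023 and 2912 in CSF3R-positive cells. At 8 h the 16 CSF3R-positive cells and the 3411 cells kept limit every statement.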

Other observations

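Cells that no marker placed in a class carried calgranulin UMIs at 8 h. There were 1044 of them, 30.6% of the cells kept, with a median of 1434.5 UMIs per cell, and in the other libraries such cells were 19.9% to 23.0% of the cells. The 3 calgranulins summed to 1395 CPM in them at 8 h, against 1164 CPM without LPS, 422 CPM at 2 h and 64.1 CPM at 4 h. S100A12 stood at 638 CPM and had a UMI in 55.6% of these cells at 8 h, S100A9 at 403 CPM in 44.7%, and S100A8 at 354 CPM in 39.4%. Thinned to 1000 UMIs, 55.2% of 712 such cells had a calgranulin UMI at 8 h, against 14.3% of 1204 without LPS, 8.05% of 1938 at 2 h and 5.56% of 1260 at 4 h. They held 11.99% of all calgranulin UMIs of the cells kept at 8 h and 1.45% to 4.94% in the other libraries.

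Cluster 2 was made up mostly of such shallow cells of the 8 h library. Of its cells at 8 h, 880 in number, 95.1% had a calgranulin UMI, with 2949 CPM in the sum and 3482 CPM in the median cell. This lay below the CD14/CSF1R-positive cells (22245 CPM) and above T cells (169.5 CPM) and B cells (279 CPM) of the same library. The cluster took the T cell class, and the T cell level by clusters at 8 h was 521 CPM. In the other libraries the cluster held 62, 112 and 7 cells, with 4225, 529 and 729 CPM.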
